A study of Sus scrofa with 2 samples.

Results

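The genes of the cytosolic ribosomal proteins were examined in cultured porcine adipose-derived stem cells (ADSCs). Members were all rows whose symbol is RPL or RPS with a number (and, where present, a letter such as A, X or L), plus RPLP0, RPLP1, RPLP2 and RPSA. This gave 83 rows of 28155 genes, 51 of the large and 32 of the small subunit, under 82 symbols. RPL18 stands on 2 rows, called RPL18-2 and RPL18 here as in the files. Of 77 ribosomal protein symbols that are not paralogues, 76 were found, and RPL41 is not among the symbols of the files. The other 6 members are paralogues, RPL3L, RPL7L1, RPL10L, RPL22L1, RPL26L1 and RPS27L.

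The series holds 1 group of 2 libraries of single cells, numbered 1 and 2, with no treatment, and its title names keloid prevention and functional subgroups of ADSCs. The cells grew out of chest fat of Bama miniature pigs, described as healthy, were passaged for 3 generations within 14 days and were then frozen. The libraries were made with the Chromium Single Cell 3' v3.1 chemistry, in which each captured transcript end carries a unique molecular identifier (UMI), so that a count does not grow with transcript length and was not divided by it. Whether these are separate animals, separate cultures or aliquots is not stated in the labels. The p-values of the main tests rest only on how far differences between classes of cells varied between these libraries, with that spread pooled over genes. This spread may be technical.

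All barcodes with at least 1000 genes were used as cells. These were 10559 of 12251 barcodes in library 1 (median 19845 UMIs) and 11984 of 12956 in library 2 (median 19651.5 UMIs), with 209737159 and 245421850 UMIs in all. The libraries shared 46 barcodes, 35 of them with at least 1000 genes in both. Of 12 stromal markers 11 reached 10 CPM (UMIs scaled to a total of 1e+06 in a library) in each library, and the list summed to 28157 and 30846 CPM. The fat cell list summed to 1.08 and 0.994 CPM, the lymphocyte list to 2.45 and 0.949 CPM, and the endothelial, macrophage, mural and epithelial lists each to between 13.1 and 36.8 CPM.

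The cytosolic ribosome translates messenger RNA into protein. Its small subunit reads the message and its large subunit joins amino acids, and each is built from ribosomal RNA and a set of proteins, most of them in equal numbers of copies. The messages of these proteins begin with a run of pyrimidines, the terminal oligopyrimidine tract, through which growth signals control their translation as a class. Growing cells in culture spend a large share of their transcripts on them.

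Ribosomal protein genes took up a large part of all UMIs, 26.4% in library 1 (95% exact binomial interval 26.35-26.36, counting error only) and 26.6% in library 2 (26.62-26.63). They filled 4 of the 10 highest ranks among all genes by mean CPM, 10 of the highest 20, 37 of the highest 50 and 62 of the highest 100. In each library 71 of the 83 rows reached 1000 CPM. The median row had 2950 CPM in library 1 and 3110 in library 2, against medians over all genes of 0.558 and 0.452 CPM.

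The large subunit supplied 57.8% of the ribosomal protein UMIs in library 1 and 57.3% in library 2. Per gene the subunits were close, with medians of 3065 and 3144 CPM for the large and 3336 and 3456 CPM for the small subunit in libraries 1 and 2. The 10 highest members held 28.3% of ribosomal protein UMIs in each library. RPS2, a small subunit protein near the entry of the message channel, was the highest, with 10367 CPM in library 1 and 10346 in library 2.

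Genes of the stalk, the arm of the large subunit that recruits the elongation factors, followed directly in RPLP1, a tip protein (9003 and 9082 CPM), and RPLP0, its base (7930 and 8601 CPM). Their partner at the tip, RPLP2, was far lower, at 1376 and 1374 CPM. RPLP1 gave more than 6 UMIs for each UMI of RPLP2 in both libraries. RPSA, a small subunit protein also known as a laminin receptor, was at 6878 and 6891 CPM.

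Among the remaining genes of the highest 10 were RPS12 (7720 and 8553 CPM) and RPL10 (7528 and 7429 CPM), the latter a protein that joins the large subunit late in its assembly. RPL7A followed at 7051 and 6511 CPM, RPL28 at 6598 and 6766 CPM, and RPS20 at 5741 and 5674 CPM. RPL10 and RPL7A were higher in library 1, while RPS12 and RPL28 were higher in library 2.

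**Figure D1:**
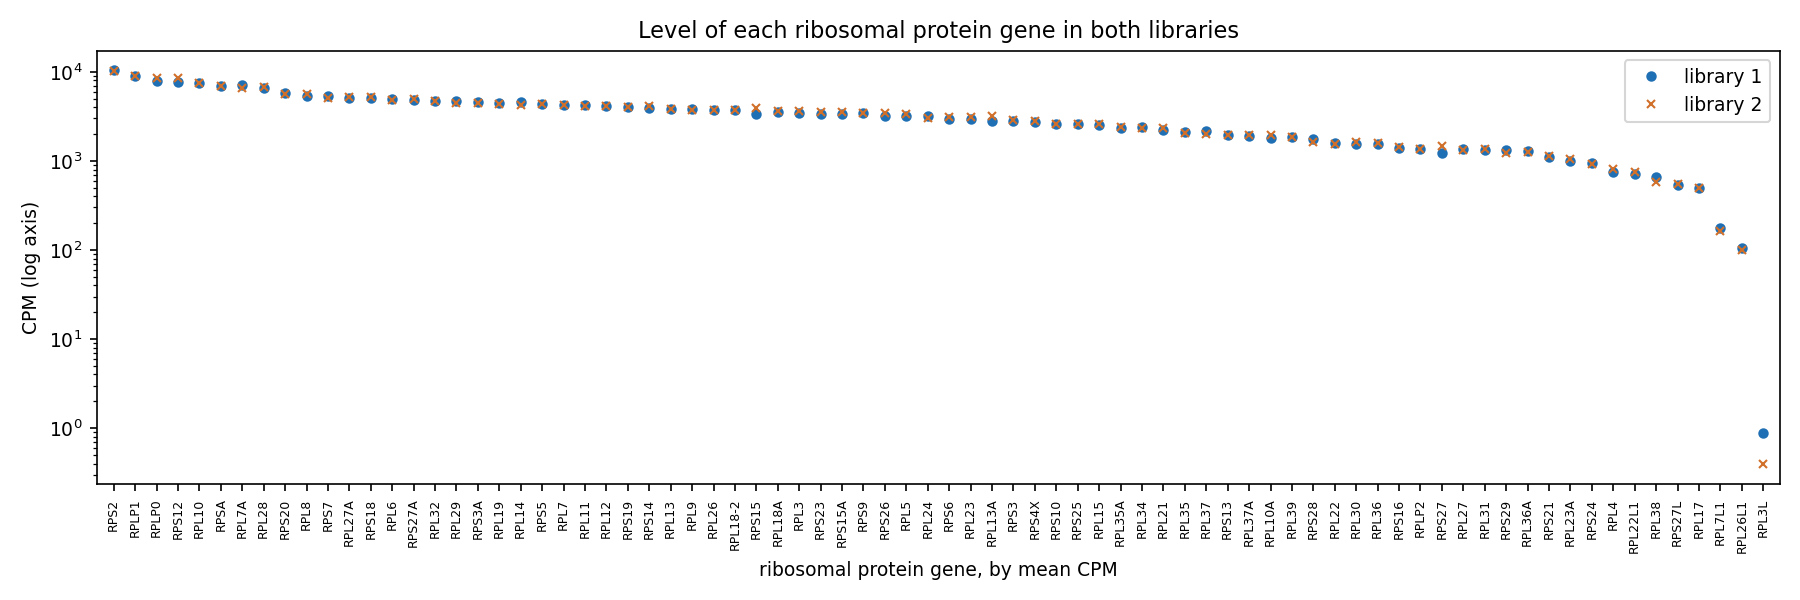
Level of the ribosomal protein genes in CPM (log axis) in library 1 (circles) and library 2 (crosses), ordered by mean CPM. RPS2 leads at 10367 and 10346 CPM and only RPL7L1, RPL26L1 and RPL3L lie clearly below RPL17, at 494 and 493 CPM; RPL18 and RPL10L, at or near 0, and a few members not reported by name are not drawn.

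The lower end of the range was made up mainly of paralogues. RPL22L1, a copy related to RPL22, was the most abundant of them at 714 and 744 CPM, against 1598 and 1560 CPM for RPL22. RPS27L, a copy of RPS27 known as a target of p53, was at 542 and 552 CPM, RPL7L1 at 178.5 and 164.6 CPM and RPL26L1 at 106 and 99.4 CPM. RPL3L, known from heart and skeletal muscle, gave 184 UMIs in library 1 (0.877 CPM, exact Poisson 95% interval 0.755-1.01) and 97 UMIs in library 2 (0.395 CPM, 0.321-0.482).

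RPL10L, a copy known from the testis, gave 0 UMIs in both libraries, which allows up to 0.0143 and 0.0122 CPM (3 counts of the total). Of the 2 rows of RPL18, RPL18-2 was at 3693 and 3752 CPM and RPL18 gave 5 and 2 UMIs. RefSeq (Sscrofa11.1) lists protein-coding genes named RPL18 on chromosome 1 (84378453 to 84379052) and on chromosome 6 (53974353 to 53978681), and the files do not say which row is which. RPL17 (494 and 493 CPM), which is not a paralogue, was nearly as low as the paralogues. Ribosomal protein genes have many near-identical processed copies in mammalian genomes, and how reads shared with them were counted is not given in the sources used here, so the level of any single member is uncertain. Rows with placeholder names were not counted as members.

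The members do not share a place in the genome. Of the 83 rows 81 matched 1 RefSeq gene of Sscrofa11.1 by symbol, on 17 chromosomes. Chromosomes 1 and 6 held 11 each, chromosomes 2 and 13 held 8 each, and 4 lay on X (RPL10, RPL36A, RPL39 and RPS4X). RPS2 and RPL3L lie on chromosome 3, RPLP1 on chromosome 1 at 167296084 to 167298264, RPLP0 on chromosome 14 at 40219196 to 40223943, and RPLP2 on chromosome 2 at 507891 to 509818. No copy on Y was among the members.

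The relative levels of the members were nearly the same in both libraries. Over the 80 members with a mean of at least 10 CPM, the median log2 ratio of library 1 to library 2 was -0.01, and the ratios ran from -0.27 to 0.18. Of these 80 members 1 (1.25%) passed a 1.2-fold difference in either direction, against 36.9% of all 8042 genes at that level, and 0 passed 2-fold, against 3.16%. With 1 library on each side there is no test of these differences.

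The member past 1.2-fold was RPS27, a small subunit protein with a zinc finger, which had 1237 CPM in library 1 (1233-1242) against 1488 CPM in library 2 (1483-1493; exact Poisson 95% intervals, counting error only). Next came RPS15, at 3396 and 3905 CPM (log2 ratio -0.20), RPL13A at 2822 and 3178 CPM (-0.17), RPS12 (-0.15) and RPLP0 (-0.12). On the other side were RPL38, at 658 and 582 CPM (0.18), RPS29 at 1340 and 1226 CPM (0.13), and RPL37 at 2155 and 1986 CPM, RPL7L1 and RPL7A, each with a log2 ratio of 0.12.

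From cell to cell the share of UMIs in ribosomal protein genes varied more than counting allows, but within a narrow band. In library 1 the 5th, 50th and 95th percentiles were 21.0%, 26.0% and 31.4%, and in library 2 they were 22.1%, 26.2% and 31.0%. After random thinning of every cell to 5000 UMIs, which left out 978 and 386 shallower cells, the SD over cells was 3.53 and 3.02 percentage points. Counting error alone gives 0.623 and 0.624 points, so the observed SD was 5.66 and 4.84 times as large. With the SD estimated from the median absolute deviation, which outlying cells move less, the ratios were 4.43 and 4.18. With 10000 UMIs per cell, the mean of the plain ratio over the libraries was 6.39. Counting error is smaller at that depth and only cells with at least 10000 UMIs enter, so this value does not show a wider spread.

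**Figure D2:**
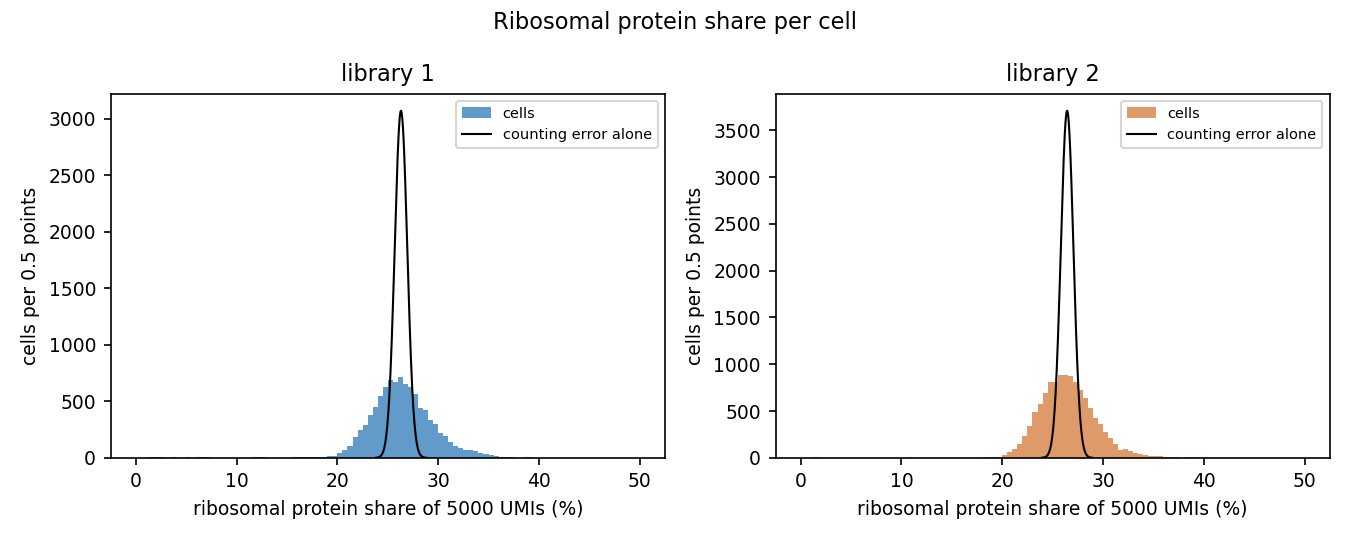
Histograms of the share of UMIs in ribosomal protein genes per cell (%), after thinning to 5000 UMIs, in each library, with the spread that counting error alone would give drawn as a line. The cells spread with an SD of 3.53 points in library 1 and 3.02 points in library 2, against 0.623 and 0.624 points from counting.

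Cells with a low ribosomal protein share were shallow and rich in mitochondrial RNA. A share below 15% was found in 239 cells of library 1 (2.26%) and 127 of library 2 (1.06%). They had medians of 3860 and 3524 UMIs, and medians of 2.42% and 2.79% of UMIs from mitochondrial ribosomal and transfer RNA, against 0.135% and 0.112% in cells with shares of 15% to 35%. Cells below 5000 UMIs had median shares of 23.0% and 22.6%, and every deeper band of cells had medians between 25.7% and 27.0%. The 80 and 81 cells above 35% had medians of 16144 and 23639 UMIs. The part of depth and of RNA quality in these values was not tested.

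The most abundant ribosomal protein genes had lower variation between cells than other genes above the same level. Variation was measured as variance over mean (the Fano factor, 1 for counting error alone) in thinned cells. For the 52 members with a mean of at least 10 thinned UMIs the median was 1.57 in library 1 and 1.36 in library 2. For the 23 other genes above that mean, the medians were 2.78 and 2.67. With a mean of at least 1 the order was the opposite, with 1.41 and 1.27 for 78 members and 1.19 and 1.17 for 493 other genes, most of them less abundant than the members. Once counting error was removed, the median coefficient of variation above a mean of 10 was 16.6% and 13.4% for members and 33.0% and 30.7% for the other genes. Abundance was not matched beyond these minimums. These are descriptions over genes of the same cells and carry no test.

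The Fano factor was highest for the most abundant members, where counting error is relatively smallest. It was 2.48 and 2.11 for RPLP1, 2.66 and 1.88 for RPLP0, 2.21 and 2.26 for RPS12, 2.36 and 2.06 for RPS2, and 2.10 and 1.77 for RPL28. Among members with at least 10 CPM it was lowest for RPL26L1 (1.02 and 1.00), RPL7L1 (1.07 and 1.03), RPL17 (1.06 and 1.08), RPS24 (1.11 and 1.06) and RPS16 (1.13 and 1.08). RPLP0 and RPL7A had wide gaps between the libraries, 2.66 against 1.88 and 2.31 against 1.56.

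**Figure D3:**
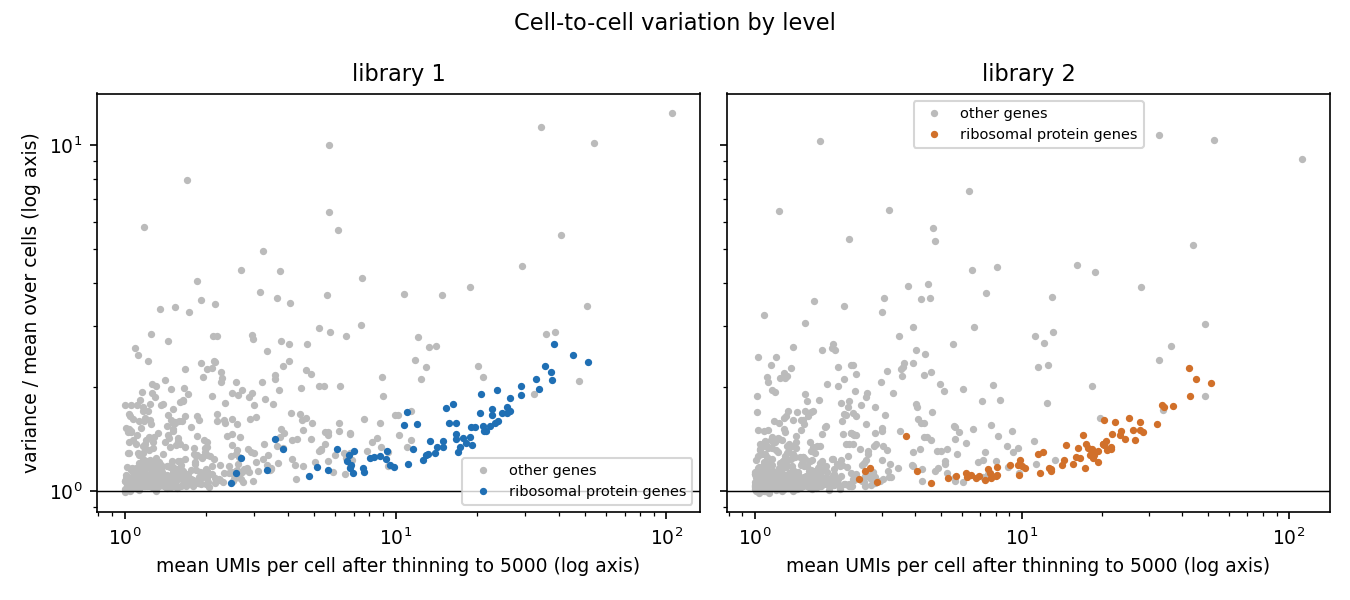
Variance over mean of UMIs per cell (log axis) against mean UMIs per cell (log axis) after thinning to 5000 UMIs, for ribosomal protein genes (coloured) and all other genes with a mean of at least 1 (grey), in each library. The coloured points form a narrow band that rises with the mean with medians of 1.57 and 1.36 above a mean of 10 against 2.78 and 2.67 for other genes.

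The members varied together across cells. To limit the part of cycling, this was described in non-cycling cells only (1901 and 2477 cells, defined in the account of cycling). That class rests on thinned counts. In full counts only 456 and 544 cells had no UMI of the core cycle genes, so cycling may not be fully kept out. The members were split into 2 sets by alternate rank of level, 42 and 41 rows. Each set was taken as its share of the UMIs outside the other set. These shares had a Spearman correlation of 0.897 in library 1 and 0.906 in library 2. Both totals hold the UMIs of all other genes, so a change in those moves both shares together. Pairs of single members had a median correlation of only 0.105 and 0.0963, and 2820 and 2974 of 3081 pairs were above 0. All cells of a library share its preparation, and these correlations describe them without a test.

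How closely a member followed the others differed widely. The correlation of a member with the summed other members had a median of 0.299 and 0.282 over 79 members. It was high for RPLP1 (0.552 and 0.532), RPS2 (0.509 and 0.569), RPL8 (0.498 and 0.499) and RPL28 (0.497 and 0.491), all abundant genes. It was near 0 for RPL7L1 (0.0651 and -0.0442), and low for RPS27L (0.120 and 0.0280) and RPL4 (0.0808 and 0.143). Low counts lower such correlations, and the members named here as low lie below 1000 CPM. RPLP0 was uneven between the libraries, at 0.198 and 0.538, although it is among the most abundant members.

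Outside the members, other genes were also described by how they varied with the ribosomal protein share. Each of 1202 other genes was measured in non-cycling cells as its share of the UMIs left after the members were taken out. The members' own UMIs then do not press its value down. However, cells with the same count of a gene are ordered by the ribosomal protein share itself. This can raise the correlation above 0 for genes with few UMIs per cell. Its part in the median and in the counts above 0 was not tested. The median correlation was 0.106, and 975 genes were above 0 and 99 below 0 in both libraries. The 22 listed translation genes with a terminal pyrimidine tract were all above 0 in both, with medians of 0.202 and 0.237 in libraries 1 and 2, against 0.109 and 0.108 over the 1202 genes. The highest were ZC3H10 (0.507 and 0.522), FAU, which encodes a small subunit protein fused to a ubiquitin-like protein (0.457 and 0.429), and EEF1A1, the factor that brings transfer RNA to the ribosome (0.318 and 0.513). SSR4, of the translocon complex, had 0.372 and 0.411, BGN, a matrix proteoglycan, 0.407 and 0.362, and SERF2 0.382 and 0.360.

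Close behind were NACA, a chaperone of nascent chains (0.306 and 0.379), EIF4EBP1, which restrains initiation (0.349 and 0.319), and EEF1B2, an elongation factor subunit (0.326 and 0.335). ZC3H10 was at 6605 and 6853 CPM, as high as RPL28. RefSeq places it on chromosome 5 at 21506510 to 21513972, between PA2G4 and ESYT1. In the human genome RPL41 is a neighbour of ZC3H10, and which transcript gave these UMIs was not tested.

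The lowest correlations belonged to genes of mixed function. They were CAV1, the main protein of caveolae (-0.211 and -0.239), ANXA2, a calcium-binding membrane protein (-0.183 and -0.224), POSTN, a matrix protein (-0.186 and -0.188), PKM of glycolysis (-0.157 and -0.194) and LMNA of the nuclear lamina (-0.141 and -0.204). ADAMTSL1 (-0.162 and -0.178), LGALS3 (-0.0971 and -0.215), S100A6 (-0.0814 and -0.215), HSP90B1 (-0.167 and -0.127) and HMGB1 (-0.144 and -0.147) completed the list.

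In size, these relations reached about 2-fold. Between the non-cycling cells above the upper quartile of the share and those below the lower quartile, BGN was 1.97 and 1.88 times as high and EIF4EBP1 1.93 and 1.74 times. CAV1 was at 0.480 and 0.485 times, and POSTN at 0.465 and 0.503 times. The cells with low shares were shallower, with medians of 17858 against 19190 UMIs in library 1 and 16461 against 22500 in library 2. They also held more mitochondrial ribosomal and transfer RNA, with medians of 0.153% against 0.126% of UMIs in library 1 and 0.141% against 0.0837% in library 2. The part of depth and of RNA quality in these ratios was not tested. ACTA2, the actin of smooth muscle and myofibroblasts, chosen after its values were seen, was 3.16 and 2.60 times as high in the cells with high shares. Other genes outside the extremes, looked at in the same way, lay near 1. COL1A2 was at 0.880 and 1.03 times, VIM at 0.965 and 1.11 times and MYC at 0.920 and 1.08 times.

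The share was lower in cells with signs of division. A cell was called cycling when at least 3 of 15 core cycle genes had a UMI among 5000 thinned UMIs, and non-cycling when none had. Summed over cells, the ribosomal protein share was 27.6% in 1901 non-cycling cells and 25.5% in 3810 cycling cells of library 1, and 28.1% in 2477 and 25.6% in 4608 cells of library 2. The differences were -2.06 and -2.48 percentage points, and with 2 libraries no exact test can reach 0.05. Leaving the cycle genes out of the total gave 27.6% against 25.7% and 28.1% against 25.7%. The 5000 thinned UMIs hold those of the members too, so a higher share leaves fewer UMIs in which a core gene can be found. The part of this limit in the differences was not tested.

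Under the same limit, the share went down step by step with the number of core genes detected. In library 1 it was 27.6% with 0 core genes, 26.9% with 1 or 2, 25.9% with 3 to 5, 25.6% with 6 to 8, 25.1% with 9 to 11 and 24.4% with 12 to 15. In library 2 the steps were 28.1%, 27.1%, 25.8%, 25.7%, 25.4% and 24.8%. The cells of the last step were few, 140 and 210. The quartiles of neighbouring steps overlapped widely.

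**Figure D4:**
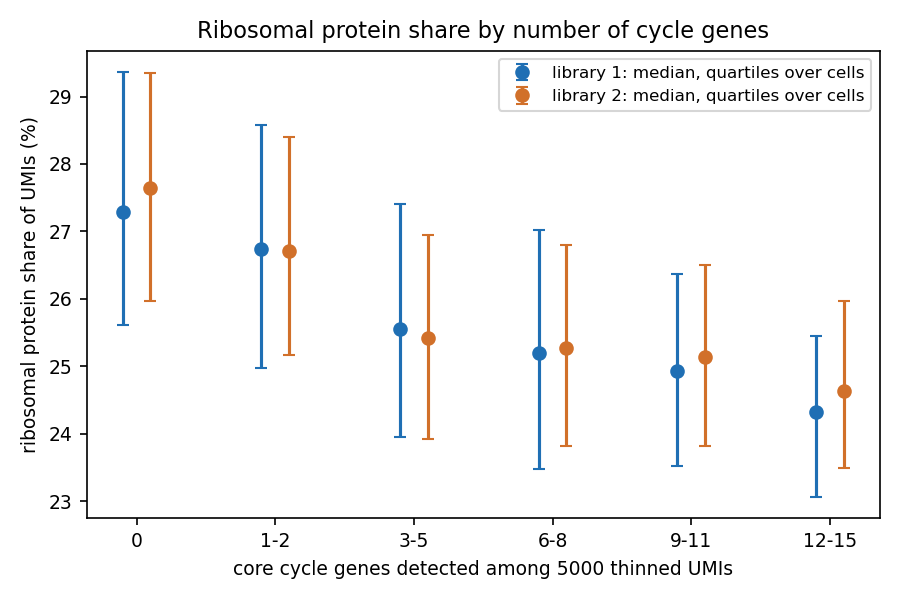
Share of UMIs in ribosomal protein genes (%) against the number of 15 core cycle genes detected among 5000 thinned UMIs, as the median over cells with bars from the lower to the upper quartile, in each library; the axis does not start at 0. The medians go down at every step in both libraries, while the bars of neighbouring steps overlap.

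The number of ribosomal protein UMIs in a cell did not go one way. The median cycling cell held 5804.5 ribosomal protein UMIs against 5598 in the median non-cycling cell of library 1, and 5304.5 against 5542 in library 2. In library 1, cells with 9 to 11 core genes held a median of 7479 ribosomal protein UMIs and 21850 other UMIs, against 5598 and 14271 in cells with none. Depth differed between the classes, with medians of 22747 against 19998 UMIs in library 1 and 20855 against 20320 in library 2. Within each of 7 bands of depth in each library, the share was lower in cycling cells, by between -1.59 and -4.16 points.

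Gene by gene, most ribosomal protein genes were slightly lower in cycling cells. Counts were summed per library and class and tested with edgeR's quasi-likelihood test, with the library as a block, over 17027 genes. The log2 fold changes given are on totals scaled by TMM. The CPM given beside them are on plain totals, so changes in CPM differ from the fold changes. Of 81 members tested, 64 fell and 2 rose at a Benjamini-Hochberg adjusted p under 0.05 with the same sign in both libraries, where 21.7% of all genes fell and 20.8% rose. The median log2 fold change was -0.18 over members and -0.01 over all genes, and 77 of 81 members were below 0, against 50.8% of all genes. With a minimum log2 fold change of 0.5 in addition, 0 members were called, against 17.5% of all genes. DESeq2 also called 0 at that minimum, and 0 members passed it at an unadjusted p under 0.05 in edgeR. With library size alone in place of TMM scaling, 67 members fell and 3 rose, while the calls over all genes moved from 3544 higher and 3697 lower to 4178 and 2826.

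Without the library as a replicate block, edgeR called 0 members lower and 0 higher, with 49 lower and 1 higher at an unadjusted p under 0.05. When the classes were set from the full counts of a cell instead of thinned counts, 0 members were called lower by edgeR, 0 were lower at an unadjusted p under 0.05, and the median was -0.01. In that setting the non-cycling cells were only 456 and 544, and far shallower than the cycling cells (medians of 7984 against 22697 and 10911 against 21794 UMIs).

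Large and small subunit genes moved alike. Of 49 large subunit members tested 38 fell and 1 rose, with a median log2 fold change of -0.18, and of 32 small subunit members 26 fell and 1 rose, with a median of -0.17. The 64 that fell lay between -0.25 and -0.15, with adjusted p-values in edgeR from 0.00173 to 0.0485. In these TMM-scaled values the change was larger in library 2, with a median of -0.22, than in library 1, with -0.14. By them 80 of 81 members were lower in library 2's contrast than in library 1's. The scaling itself lowered the values more in library 2. RPLP1 went from 9470 to 8713 CPM in library 1 and from 9513 to 8813 CPM in library 2. Its scaled values were -0.15 and -0.20. The CPM of RPL10 did fall further in library 2. How much of the gap comes from the scaling was not tested. The SE was between 0.05 and 0.06 for members with at least 10 CPM, since with 1 residual degree of freedom the spread was estimated largely over all genes.

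RPL10 fell most, from 8082 to 7179 CPM in library 1 and from 8077 to 6981 CPM in library 2. Its log2 fold change was -0.25 ± 0.06 (SE), with an adjusted p of 0.00182 in edgeR, and -0.19 with library size alone. Both libraries' non-cycling sums lay above both cycling sums, without overlap. RPL34 was at 2555 and 2250 CPM in library 1 and 2506 and 2229 CPM in library 2 (-0.24), and RPL37 at 2318 and 2029 and at 2115 and 1899 CPM (-0.23). RPL38, a protein known for its part in translating Hox messages, was at 702 and 621 and at 620 and 553 CPM (-0.23). The classes did not overlap for RPL34 and RPL37, while RPL38 was as high in cycling cells of library 1 as in non-cycling cells of library 2.

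RPS18 followed at 5380 and 4809 CPM in library 1 and 5616 and 4994 CPM in library 2 (-0.23). RPS27 was uneven, at 1297 and 1205 CPM in library 1 and 1626 and 1392 CPM in library 2. Its TMM-scaled log2 changes were -0.13 and -0.32, with a joint value of -0.23 (-0.17 with library size alone). The classes of RPS27 overlapped between the libraries. RPL12, RPL7A, RPL10A and RPS19, the last a gene mutated in Diamond-Blackfan anaemia, each fell by 0.22 on the log2 scale. These were the 10 members with the lowest values.

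The stalk genes and RPSA fell within the same narrow range. RPLP0 changed by -0.18 after scaling, with plain CPM from 8200 to 7820 in library 1 and from 9197 to 8191 in library 2. RPLP1 also changed by -0.18 and RPLP2 by -0.15, and RPSA by -0.20. RPS2, the highest member, fell by 0.21 on the log2 scale.

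RPL7L1 went the other way. This gene, a paralogue of RPL7, had 163 CPM in non-cycling and 195 CPM in cycling cells of library 1 and 146 and 181 CPM in library 2, and its classes did not overlap. Its log2 fold change was 0.23 ± 0.05, with an adjusted p of 0.00168 in edgeR, and 0.29 with library size alone. It was also among the members that followed the others least across non-cycling cells.

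The other 15 members tested did not pass. Among them 13 were below 0, from -0.14 for RPL9 to -0.0016 for RPL17, and they included RPL3 (-0.13), RPL23A (-0.12), RPL15 (-0.12), RPL21 (-0.11), RPL27 (-0.11), RPS15 (-0.10) and the X-linked RPS4X (-0.13). RPL26L1 was at 0.09 and RPL3L, below 1 CPM, at 0.60 ± 0.31 (adjusted p 0.133 in edgeR). Of the other paralogues, RPL22L1 fell by 0.21 on the log2 scale and RPS27L was at -0.04. RPL18 and RPL10L were too low to be tested.

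**Figure D5:**
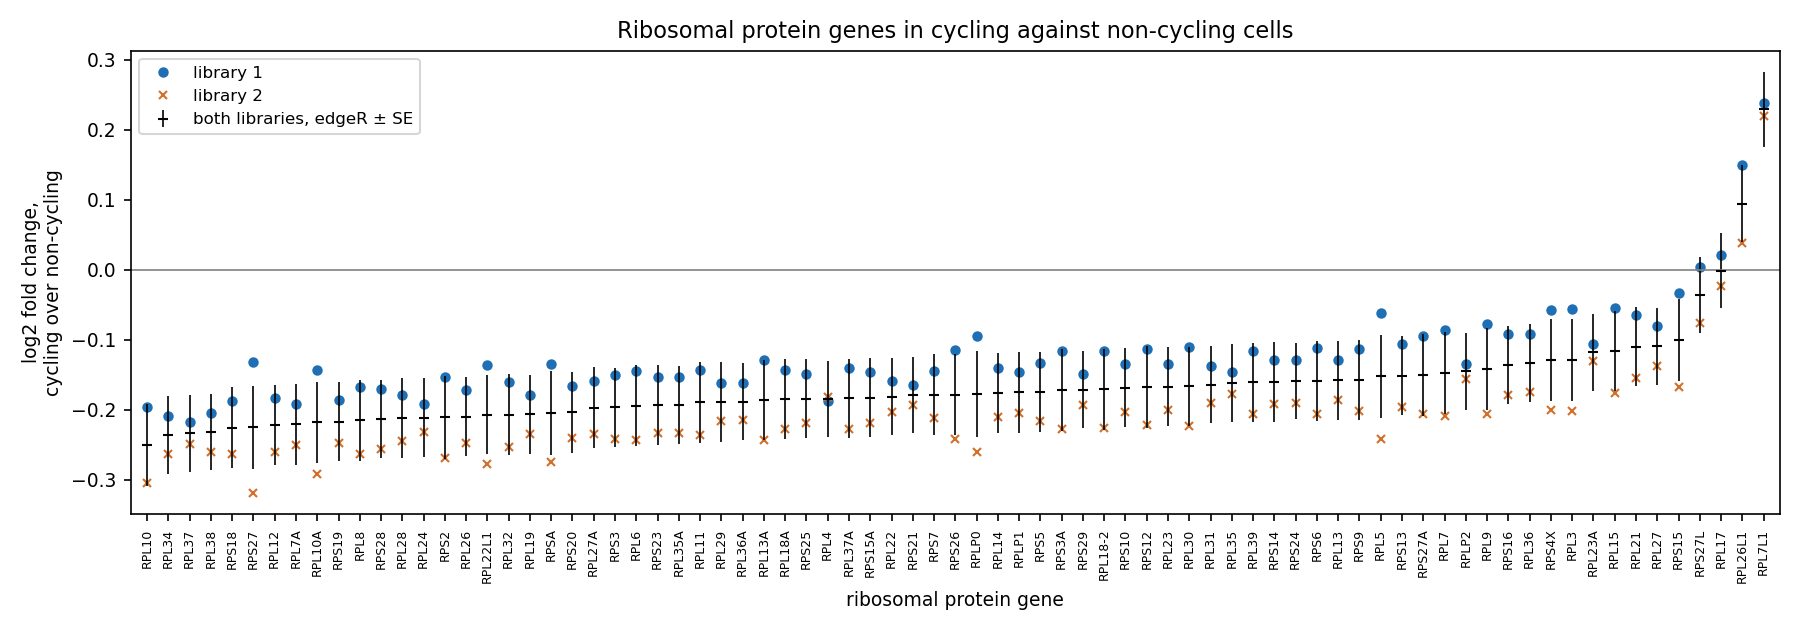
Log2 fold change of ribosomal protein genes in cycling against non-cycling cells, in library 1 (circles), library 2 (crosses) and jointly in edgeR with its SE (bars), ordered by the joint value. All values are on TMM-scaled totals, a scaling that lowers library 2 more than library 1. Most members lie between -0.25 and -0.10 with library 2 below library 1, and RPL7L1 lies highest, above 0 in both libraries; RPL3L (0.60 ± 0.31, off the scale) and a few members not reported by name are not drawn.

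Ribosomal protein genes outside the naming rule gave like values. FAU was at 2055 and 1983 CPM and fell by 0.19 on the log2 scale (adjusted p 0.00922 in edgeR), and RPL36AL, a copy of RPL36A, at 565 and 573 CPM fell by 0.16 (0.0199). RACK1, the signalling scaffold of the small subunit, was at 2322 and 2659 CPM with a log2 fold change of -0.15, which missed the threshold (0.0515).

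In the rest of the translation machinery the medians of the lists lay on both sides of 0. Of 22 genes listed as translation genes with a terminal pyrimidine tract, FAU and RACK1 among them, 10 fell and 3 rose. Over all genes 21.7% fell and 20.8% rose. The median of the list was -0.14. TPT1 fell by 0.28 on the log2 scale, the initiation factor subunit EIF3F by 0.28, the elongation factors EEF1B2 by 0.25, EEF2 by 0.25 and EEF1A1 by 0.21, while NAP1L1 (0.30), EIF3E (0.17) and HNRNPA1 (0.16) rose. Of 21 initiation factors outside that list 9 rose and 3 fell, against the same shares of all genes, with a median of 0.06. Among them EIF5A (0.25) rose and EIF4EBP1 (-0.15) fell.

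Most genes listed as building ribosomes rose in cycling cells. Of 35 genes of ribosome assembly and ribosomal RNA synthesis 22 rose and 2 fell, against 20.8% and 21.7% of all genes. The median of the list was 0.26. The nucleolar protein gene RRP1B rose by 0.69 on the log2 scale, NOP56 and DKC1, of the particles that modify ribosomal RNA, by 0.64 and 0.60, NIP7 by 0.62, nucleolin (NCL) by 0.56 and fibrillarin (FBL) by 0.41, whereas MYC (-0.51) and RRP9 (-0.43) fell. The list's share of UMIs was 0.229% in non-cycling and 0.271% in cycling cells of library 1, and 0.220% and 0.269% in library 2.

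Proteins of the mitochondrial ribosome, which is separate from the cytosolic one, also mostly rose. Of 75 genes 44 rose and 1 fell (MRPL15, -0.21), against 20.8% and 21.7% of all genes. The median was 0.19, and MRPS25 (1.21), MRPS6 (0.87) and MRPS12 (0.60) rose most. Their share of UMIs was 0.640% against 0.747% in library 1 and 0.626% against 0.740% in library 2. The difference between these lists and the members was not tested. The summed stromal markers were 29092 CPM in non-cycling and 27478 CPM in cycling cells of library 1 and 33071 and 28603 CPM in library 2, and mitochondrial ribosomal and transfer RNA was 0.142% against 0.123% and 0.111% against 0.100% of UMIs; their part in these values was not tested.

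Cycling cells were further divided by whether UMIs of 15 genes of DNA replication (S-leaning, 857 and 1034 cells) or of 15 genes of mitosis (mitosis-leaning, 2695 and 3285 cells) were in excess. The ribosomal protein share was 26.0% in S-leaning and 25.4% in mitosis-leaning cells of library 1, and 25.9% and 25.5% in library 2. Over 16444 genes, 2 members fell and 0 rose in mitosis-leaning against S-leaning cells in edgeR, where 7.55% of genes fell and 7.02% rose. At an unadjusted p under 0.05 these counts were 3 and 0, and DESeq2 called 2 lower and 0 higher. The unadjusted count of lower members depended on the scaling, with 23 at library size alone and 28 with library sizes from genes other than members, and 0 were higher in both. No member passed with the minimum fold added, against 4.62% of all genes, and the median log2 fold change was -0.02.

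RPL4, a large subunit protein, was among those that fell, with 768 CPM in S-leaning and 691 CPM in mitosis-leaning cells of library 1 and 850 and 767 CPM in library 2. It changed by -0.14 ± 0.04 (adjusted p 0.0411 in edgeR). Its value in mitosis-leaning cells of library 2 (767 CPM) lay close to that in S-leaning cells of library 1 (768 CPM). Without the replicate block 0 members were called lower in this comparison.

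Each phase was also set against the same non-cycling sums, so these comparisons share them and are given side by side. In S-leaning cells 67 members fell and 2 rose (19.9% and 18.5% of all genes), with a median of -0.17, and in mitosis-leaning cells 73 fell and 2 rose (23.1% and 22.3%), with a median of -0.18. RPL7L1 was at 0.23 in both, and RPL4 at -0.09 in S-leaning and -0.22 in mitosis-leaning cells.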

How the data were processed

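Single-cell UMI counts of 2 libraries were used as deposited, whole-number counts per gene and barcode without normalization, made by the authors with Cell Ranger; its version, 7.0.0, comes from the file headers. The submitters' processing notes name the build Sscrofa11.1. How introns and empty droplets were handled, and the annotation, is not given in the sources used here. Members, gene lists and tests were chosen with earlier results of these data known. Rules for the named genes took the extremes of level, library ratio, Fano factor and fold change, the stalk genes, the paralogues and, of other genes, the extremes of correlation with the share.

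Cells had at least 1000 genes, and no doublets were removed. Cells were thinned to 5000 UMIs only to set classes and to describe variation (Python 3.11.15, scipy 1.17.1). Full counts were summed per library and class and tested with edgeR 4.0.16 (TMM, filterByExpr, robust quasi-likelihood test) in R 4.3.3, adjusted over all genes, after a check on simulated data. Both classes of a library come from the same preparation, so the library number pairs them and was the block. DESeq2 1.42.0, other scalings, filters and class limits, and leaving out libraries, deep cells, shared barcodes or cells rich in mitochondrial RNA were alternatives; those on shared barcodes and mitochondrial RNA were chosen after seeing the data. A few genes that the rules would name are not reported here, and they stay in every fit and count.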

Additional observations from a re-analysis of the deposited data

Results flagged for a closer look

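Barcodes with fewer than 1000 genes, which no comparison used, also held ribosomal protein UMIs. Their share was 23.1% of UMIs in library 1 (1692 barcodes, median 1013.5 UMIs) and 19.2% in library 2 (972 barcodes, median 874 UMIs), a signal in data outside the comparisons.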

How the results depend on the processing

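The lower share in cycling cells kept its direction under every alternative run, -2.27 points as the mean of both libraries, -0.79 with classes from unthinned counts and between -2.48 and -2.06 otherwise. Leaving mitochondrial and placeholder-named genes out of the total moved the share from 26.5% to 27.3%. Thinning to 10000 UMIs, where counting error is smaller, moved the ratio of observed to counting SD from 5.25 to 6.39. The 64 members called lower in cycling cells, and the 2 called higher, became 0 and 0 without the replicate block, and 0 were called lower with unthinned classes; the cause was not tested. The median member (-0.18) was at -0.12 with library size alone and -0.0077 with unthinned classes, and between -0.22 and -0.14 without a library. Past the fold minimum, 1 member (RPL3L) lay in either library alone, and between 0 and 1 in the phase comparison. With unthinned classes RPL3 (0.10), RPL15 (0.062), RPL21 (0.090), RPL27 (0.043) and RPS15 (0.11) reversed. In the phase comparison 2 members called lower became 4 with library size alone, 1 without a filter, 0 without the replicate block and 5 with library sizes from other genes, a scaling added after seeing the data; the median (-0.02) was 0.0081 without a filter, -0.039 with those library sizes, and between -0.033 and -0.0043 without a library. Over all genes, 3544 higher and 3697 lower calls became 4178 and 2826 with library size alone, 2114 and 2104 in DESeq2, 1977 and 1807 with unthinned classes, and 317 and 59 without the replicate block, and with the fold minimum 1379 and 1604 became 317 and 57; the phase comparison's 1155 and 1241 became 0 and 0 without the block, 621 and 578 in DESeq2. Of 18 named members, 11 were called in the main fit. All 11 lost their call without the block, and 10 of them, all but RPL7L1, with unthinned classes. Without shared barcodes, or without cells rich in mitochondrial RNA, 64 fell and 2 rose. Low counts limit RPL3L, RPL18 and RPL10L most, and also the correlations of members below 1000 CPM.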
